A study of Zea mays with 24 samples.

Results

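The maize genes pr5 and cpi2 were examined in leaf RNA of the inbred lines B73, Mo17, W23 and Wf9. They are 2 of the 579 genes that the annotation names for a pilot Affymetrix maize GeneChip, and they were represented by 5 of its 8346 tested probe sets, 1 for pr5 and 4 for cpi2. A probe set is a group of short oligonucleotide probes that together report 1 transcript sequence. The members were all probe sets whose gene symbol in the platform annotation, or a synonym in the RefSeq gene table, was pr5 or cpi2. Both were reached through synonyms, since the platform annotation gives them as LOC542720 (pr5, also PR-5) and LOC100101525 (cpi2, also Cystatin2 and psei2). The genes were chosen by the MAS5 signals of these same arrays, for how they varied among lines and replicates, so their levels are given as a description, with no test.

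Each of the 12 RNAs came from leaves 3 to 5 of 6 to 10 plants of a single line raised in a greenhouse, with no treatment or mutation named in the labels. The cycle of growing, collecting and extracting was run 3 times per line, and 2 arrays per RNA gave 24 arrays. The values are Affymetrix MAS5 signals, intensities on a linear scale that the authors had scaled array by array. Because plants were pooled and whole leaves were used, fewer cells of a type and less RNA per cell cannot be told apart. Whether the sequences of the lines differ at the probes, and so change the signal, was not tested. Differences among lines are therefore differences in signal, for members and lists alike.

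Plants answer attack by fungi, bacteria and feeding insects with pathogenesis-related proteins and with inhibitors of digestive proteases. Proteins of the PR-5 family resemble the sweet protein thaumatin, and several of them permeabilise fungal membranes. Cystatins are small proteins that block papain-type cysteine proteases, both those of herbivores and pathogens and the plant's own, which act in protein turnover and senescence. Cysteine proteases and enzymes listed by symbol for the synthesis of jasmonate, the wound hormone, are therefore described after the members.

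B73 replicate 3 array 1 stood apart from its technical partner. Across the 6446 probe sets above background, the log2 signals of this pair had a correlation of 0.925, against 0.993 or more in the other 11 pairs. Its ratio of 3' to 5' signal for the ef1a control was 0.696, against 1.23 to 1.74 on the other 23 arrays. Its ratio for the cyclophilin control, 1.65, lay within the 1.29 to 2.24 of the others, and its gapdh ratio had no value. All 213 exact zeros of the deposited table lay on this array, and none of them was in a member probe set. The 17 leaf marker probe sets, of which 15 were above background on every array, summed to between 57365 and 124195 signal units over the 12 RNAs, and B73 replicate 3 was the lowest, with 58161 when array 1 was left out. Seed markers were at background in 3 of 3 probe sets. The single root marker, zrp4, ranged over 20.4 to 75.9 signal units in B73, against 8.45 to 17.5 in Mo17, W23 and Wf9. The 4 pollen and anther marker probe sets were all matched as profilins, of 3 genes, so this list reports profilin signal only. Of the 4, 3 were above background on every array and 1 was at background on all arrays. The F-test described with the defence genes called 2 of the 4 different among the lines. The summed signal of the 4 was 9116 to 12579 in Wf9, 8158 to 8819 in W23, 6634 to 7810.5 in B73 and 6448 to 7508 in Mo17. The part of these differences in the results was not tested. Member levels in B73 are also given without B73 replicate 3 array 1, called the odd array below, and so are the defence calls that it changes.

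The pr5 probe set, Zm3.6659.1.A1_at, gave high signals in B73 and Mo17, low signals in Wf9, and signals at or near background in W23. On the 2 arrays of each RNA, B73 had 576 and 563 signal units in replicate 1, 246 and 290.4 in replicate 2, and 2675 and 1340.1 in replicate 3. Mo17 had 450.4 and 509.9 in replicate 1, 99.5 and 107 in replicate 2, and 302 and 296 in replicate 3. Wf9 had 59.8 and 53.7 in replicate 1, 14.2 and 11.4 in replicate 2, and 128 and 135 in replicate 3. W23 had 17.4 and 11.5 in replicate 1, 7.40 and 2.60 in replicate 2, and 9.00 and 10.3 in replicate 3. B73 replicate 3 was far above every other RNA on both of its arrays, and W23 was low on all 6 of its arrays.

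Background was set at 16.7 signal units, the level under which 99% of the signals of 44 unspiked control probe sets fell. Of the 6 arrays of each line, 5 in W23 and 2 in Wf9 were at or below it, and none was in B73 or Mo17. The line means of pr5 were 948 ± 929.5 in B73, 294 ± 188 in Mo17, 67.0 ± 60.0 in Wf9 and 9.70 ± 4.72 in W23 (SD, n = 3 replicates each). Without the odd array the B73 mean was 726 ± 553. In B73 and Wf9 the SD was nearly as large as the mean.

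Folds between lines are ratios of geometric means, with each array that was below background set to background. Folds against W23 and Wf9 are therefore understated. B73 was 39.3-fold above W23 (35.0-fold without the odd array) and 13.2-fold above Wf9 (11.8-fold). The fold of B73 over W23 depended on which B73 replicate was present. It was 23.2 without B73 replicate 3 and 61.7 without B73 replicate 2, and 42.3 without B73 replicate 1. Mo17 was 14.6-fold above W23. The replicates of these 3 pairs of lines did not overlap. They overlapped between B73 and Mo17, at 2.69-fold (2.40-fold without the odd array), between Mo17 and Wf9, at 4.91-fold, and between Wf9 and W23, at 2.97-fold. In the order of pr5 levels, each line thus overlapped its neighbour and no line beyond it.

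**Figure D1:**
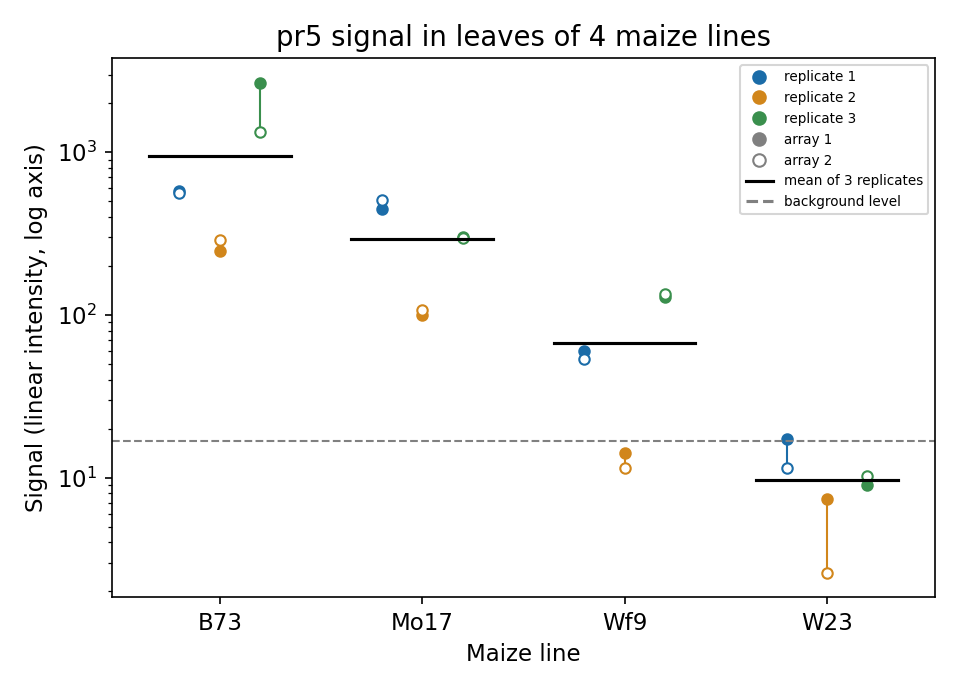
MAS5 signal of the pr5 probe set on a log axis, for B73, Mo17, Wf9 and W23 from left to right, with each array as a point and the background of 16.7 as a line. Replicates of a line lie farther apart than most pairs of arrays of 1 RNA, and 5 of the 6 W23 arrays lie at or below background.

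The replicates of a line differed in pr5 by more than the arrays of an RNA did. With arrays below background set to background, the highest replicate was 7.09 times the lowest in B73 (5.02 times without the odd array), 4.64 times in Mo17 and at least 7.87 times in Wf9. No ratio is given for W23, where each of the 3 replicates had an array at or below background. On the log2(signal + 16) scale the SD was 1.06 between replicates within a line and 0.233 between the arrays of an RNA. The medians over the 6446 probe sets above background were 0.245 and 0.151. The replicate SD of pr5 was larger than that of 99.2% of these probe sets (98.9% without the odd array), and its SD between line means, 2.10 (2.04 without the odd array), was larger than that of 99.5%. Since pr5 was chosen for how it varied among lines and replicates, nothing is read from these ranks.

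Replicate 2 had the lowest pr5 signal in each of the 4 lines. The same was true of 91 of the 6446 probe sets above background, or 1.41%. In W23 and Wf9 that lowest value was below background. Counted over B73, Mo17 and Wf9 alone, 934 probe sets, or 14.5%, had replicate 2 lowest. Within each replicate number, B73 was highest, then Mo17, Wf9 and W23, although replicate 2 of Wf9 and of W23 were both below background. The labels name no shared day or batch for a replicate number.

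The 4 probe sets of cpi2 did not rank the lines in the same order. The levels below are compared among lines within a probe set, since signals of different probe sets are not on a common scale. Whether the differing orders come from transcript levels or from how well the probes match each line's sequence was not tested. In Affymetrix naming, the suffix _a marks probes shared by transcripts of 1 gene, and _x marks probes that may also bind other transcripts. Of the 5 member probe sets, 3 carry such a suffix, so their signal may include a related transcript, and 2 are plain _at sets.

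The brightest cpi2 probe set, Zm1.14272.4.S1_a_at, was strong in every line. Mo17 had 4385, 4082 and 4815 signal units in its 3 replicates, and W23 had 3778, 3337 and 3356. Wf9 had 3309, 3921 and 2747, and B73 had 2674, 2667 and 1889. Mo17 was the highest line and B73 the lowest, with Mo17 at 1.90 times B73, or 1.66 times without the odd array. The line means were 4428 ± 368 in Mo17, 3490.3 ± 249 in W23, 3326 ± 587 in Wf9 and 2409.9 ± 451 in B73 (SD, n = 3 each). Only the replicates of W23 and Wf9 overlapped. Without the odd array the B73 mean was 2652 ± 31.9.

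The probe set Zm1.14272.4.S1_x_at, which shares the design sequence number of the first, divided the lines far more widely. Mo17 had 949.6, 888 and 1181 signal units, and W23 had 588, 515 and 515. Wf9 had 83.3, 66.3 and 77.8, and B73 had 97.9, 84.0 and 68.5. Mo17 and W23 were high, Wf9 and B73 were low, and no replicate of a high line came near one of a low line. Mo17 was 13.2-fold above Wf9 and 13.8-fold above B73, while W23 was 7.14-fold above Wf9 and 7.44-fold above B73. Mo17 stood 1.85-fold above W23, and those replicates did not overlap either.

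The 2 low lines of this probe set, Wf9 and B73, had no settled order. In B73 replicate 3 it read 10.4 signal units on array 1, below background, and 126.5 on array 2. Without array 1, Mo17 was 9.85-fold and W23 5.31-fold above B73. The linear mean was 75.8 ± 8.66 in Wf9, against 83.5 ± 14.7 in B73 with all arrays and 103 ± 21.7 without array 1 (SD, n = 3 each). The geometric mean was higher in Wf9 with all arrays and higher in B73 without array 1, and the replicates overlapped both ways.

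The probe set Zm1.14272.5.S1_x_at had a graded order. Mo17 had 502, 446 and 593 signal units, and B73 had 383, 331 and 366. W23 had 264, 230.2 and 217, and Wf9 had 214, 165 and 198. Mo17 was 2.67-fold above Wf9, and the replicates did not overlap in any of the 6 pairs of lines. Mo17 averaged 514 ± 73.8 and B73 averaged 359.8 ± 26.7 (379 ± 47.0 without the odd array), while W23 averaged 237 ± 23.8 and Wf9 averaged 193 ± 25.1 (SD, n = 3 each).

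The plain probe set, Zm3.14272.1.A1_at, paired B73 with Mo17 and W23 with Wf9. B73 had 502, 410.1 and 446 signal units, and Mo17 had 453, 376 and 502. W23 had 250.03, 240.4 and 232, and Wf9 had 209, 191 and 194. The B73 and Mo17 replicates overlapped, at 1.01-fold (1.12-fold without the odd array), and the replicates of every other pair did not. B73 averaged 453 ± 46.2 (497 ± 84.2 without the odd array) and Mo17 averaged 444 ± 63.6, while W23 averaged 241 ± 8.91 and Wf9 averaged 198 ± 10.1 (SD, n = 3 each). B73 was 2.25-fold above Wf9, or 2.49-fold without the odd array.

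**Figure D2:**
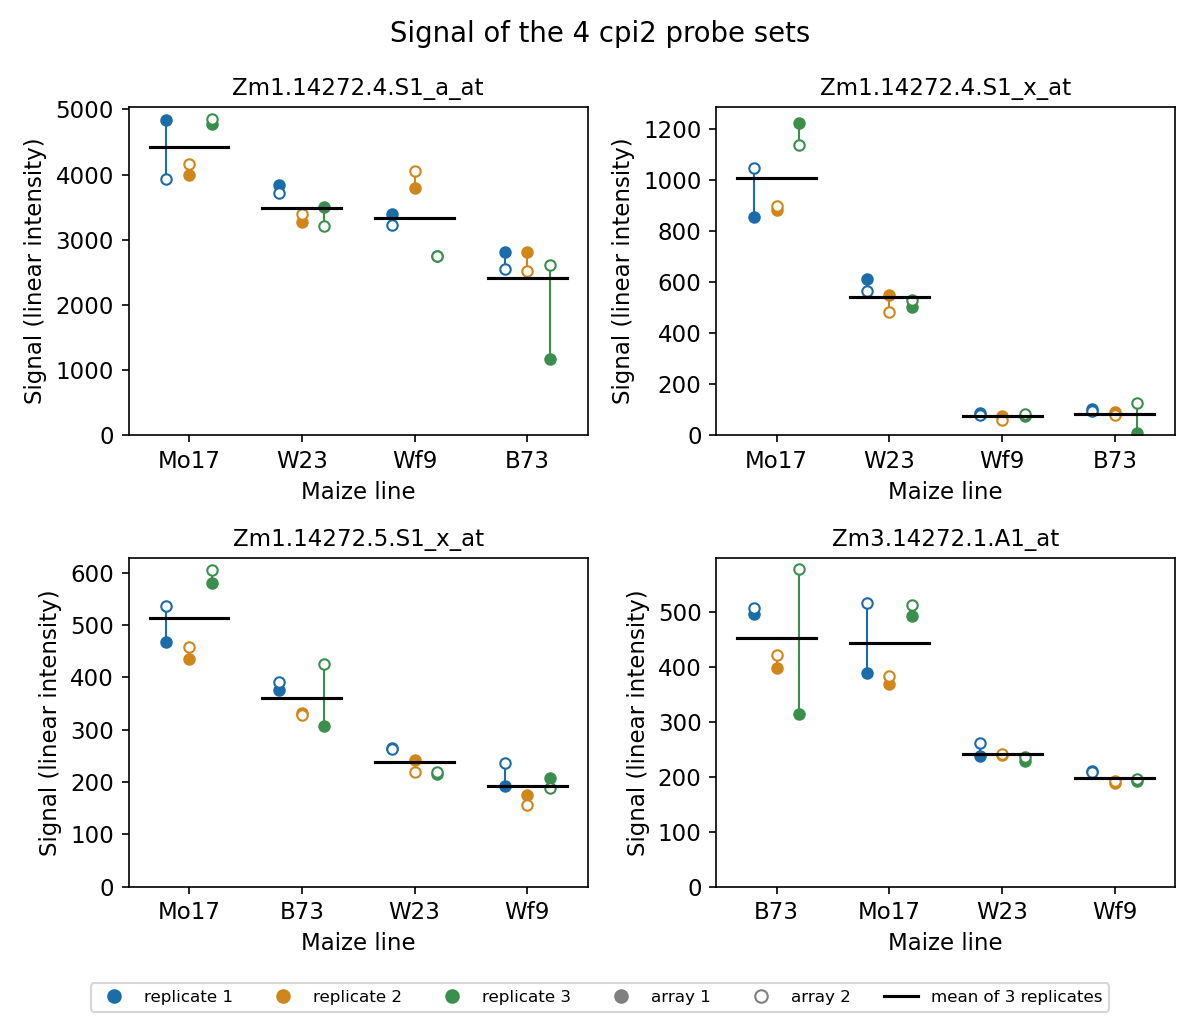
MAS5 signal of the 4 cpi2 probe sets, 1 panel each, with lines ordered from high to low within a panel and each array as a point. B73 is lowest on Zm1.14272.4.S1_a_at and highest on Zm3.14272.1.A1_at, and Zm1.14272.4.S1_x_at shows a gap between Mo17 and W23 and the other 2 lines.

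B73 therefore held the last place on Zm1.14272.4.S1_a_at, the second on Zm1.14272.5.S1_x_at and the first on Zm3.14272.1.A1_at. Mo17 was first or level with the first on each of the 4. Over the 12 RNAs, Zm1.14272.5.S1_x_at and Zm3.14272.1.A1_at had a correlation of log2(signal + 16) of 0.93, and the probe sets named _a and _x of design sequence 4 had 0.76. Between these pairs the correlations were lower, from -0.06 for Zm1.14272.4.S1_a_at with Zm3.14272.1.A1_at to 0.50 for Zm1.14272.4.S1_x_at with Zm1.14272.5.S1_x_at. The pr5 probe set had 0.79 with Zm3.14272.1.A1_at (0.85 without the odd array), 0.68 with Zm1.14272.5.S1_x_at, -0.24 with Zm1.14272.4.S1_x_at and -0.46 with Zm1.14272.4.S1_a_at (-0.27 without the odd array). These values describe 12 RNAs that fall into 4 lines, and they share the arrays and the scaling.

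Replicates that did not overlap were counted over the 5 member probe sets in each pair of lines, beside the share of all tested probe sets with the same pattern. In B73 against Mo17, 0 of the 5 were higher and 3 lower (12.4% and 17.5% of all tested), and in B73 against W23, 3 were higher and 2 lower (14.3% and 19.0%). In B73 against Wf9, 3 were higher and 1 lower (12% and 16.9%). All 5 were higher in Mo17 than in W23 and 0 lower (17.5% and 16%). Against Wf9, 4 were higher in Mo17 and 0 lower (16.3% and 16.1%), and 3 were higher in W23 and 0 lower (17.0% and 18.6%). Since the members were chosen for differences among lines, nothing is read from these counts. Without the odd array, overlap changed in 0 of the 30 combinations of member and pair.

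The replicates of cpi2 lay closer together than those of pr5. On the log2(signal + 16) scale the SD between replicates within a line was 0.231 for Zm1.14272.4.S1_a_at, 0.273 for Zm1.14272.4.S1_x_at, 0.157 for Zm1.14272.5.S1_x_at and 0.133 for Zm3.14272.1.A1_at. These exceeded the SD of 45.7%, 57.3%, 19.0% and 10.1% of the probe sets above background, in the same order, and 21.5%, 37.5%, 30.7% and 27.2% without the odd array. The SD between line means was 0.382, 0.599 and 0.568 for the _a, the 5 series _x and the plain probe set, and 1.80 for Zm1.14272.4.S1_x_at. The median over all probe sets above background was 0.278. Since cpi2 was also chosen for how it varied, these ranks and SDs are a description only. The SD between the arrays of an RNA, 0.508 for Zm1.14272.4.S1_x_at, was 0.111 without the odd array.

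**Figure D3:**
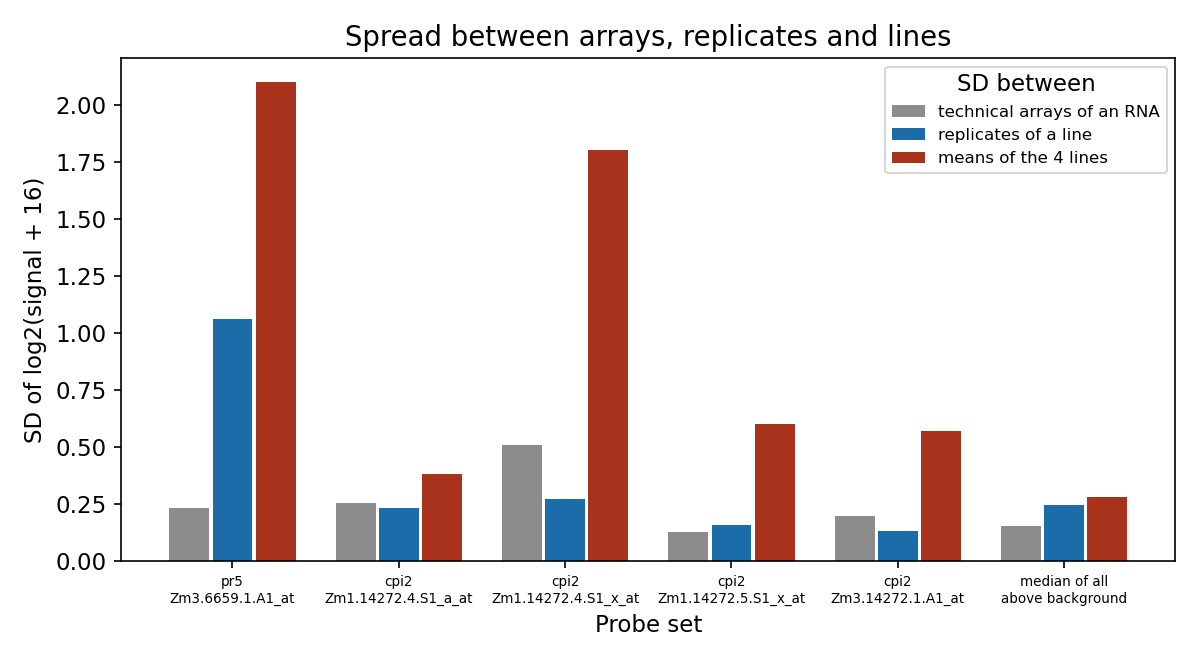
SD of log2(signal + 16) between the arrays of an RNA, between replicates of a line and between line means, for the 5 member probe sets and for the median of the 6446 probe sets above background. The replicate SD of pr5, 1.06, is far above those of the cpi2 probe sets, from 0.133 to 0.273.

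Among 711 other named probe sets, the 3 whose pattern over the 12 RNAs was most like that of each member were listed by their correlation of log2(signal + 16). For pr5 they were LOC542634 at 0.89, pk3 at 0.88 and Sod4A, a superoxide dismutase, at 0.88. Without the odd array LOC542634 and pk3 remained and Sod4A did not. LOC542634 averaged 223 ± 228 signal units in B73 and 105 ± 54.7 in Mo17, while W23 averaged 16.9 ± 1.89 and Wf9 averaged 12.1 ± 2.67 (SD, n = 3 each). All 6 Wf9 arrays and 4 of the 6 W23 arrays were at or below background, so these lines have no order for this gene.

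For Zm1.14272.4.S1_x_at the nearest were GST26, a glutathione transferase, at 0.94, sbe1, a starch branching enzyme, at 0.93, and gst14 at 0.93. All 3 remained without the odd array. GST26 averaged 56.8 ± 8.93 in Mo17 and 61.0 ± 18.3 in W23, against 13.0 ± 5.11 in Wf9 and 14.3 ± 6.82 in B73 (SD, n = 3 each), so its low lines were at about background. For Zm1.14272.5.S1_x_at they were pip2c, an aquaporin, at 0.95, bx1, the first enzyme of benzoxazinoid synthesis, at 0.91, and mbd106 at 0.90. Without the odd array pip2c and mbd106 remained and bx1 did not. Bx1 averaged 3619.9 ± 139 in Mo17 and 251 ± 256 in B73, while W23 averaged 104 ± 36.1 and Wf9 averaged 29.5 ± 16.3 (SD, n = 3 each). Pip2c also led for Zm3.14272.1.A1_at, at 0.90, followed by tua3, an alpha tubulin, at 0.90 and gst35 at 0.89, of which only pip2c remained. For Zm1.14272.4.S1_a_at they were SRP2B at 0.94, GPC1 at 0.93 and dxr at 0.92, and none remained.

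Other defence genes were matched by symbol or synonym alone, giving 23 probe sets of 15 genes. The gene tables used here hold no descriptions, so the name patterns of the lists found nothing, and genes known only by a description are not among them. Limma's moderated F-test over all 8346 probe sets, with Benjamini-Hochberg adjustment at 0.05, called 9 of the 23 (39.1%) different among the lines. It called 30.5% of all tested probe sets, but these include sets at or below background on every array, and the 23 include none. With such sets left out, it called 39.7% of the remaining 6446 and again 9 of the 23, so the share of the lists was near that of all. Of the 15 genes, 6 had a called probe set, and 4 of the 9 called probe sets belonged to the gene aoc1. The median log2 difference between the highest and the lowest line was 1.11 over the 23 and 0.46 over all tested. The second median also takes in the probe sets at background on every array, and 4 of the 23 are of aoc1. Nothing is therefore read from this contrast. A wildcard in the symbols also caught prpl35-1, a plastid ribosomal protein, which was called, and prpo1, which was not. Without these the count was 8 of 21 probe sets (38.1%). Without the odd array 9 of the 23 were called as well, of which 8 were the same: ccp2 was lost and a second Zlp probe set was gained.

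By pair of lines, 5 of the 23 were higher in B73 than in Mo17 and 0 lower, where 7.66% and 7.00% of all tested probe sets passed. In B73 against W23, 3 were higher and 0 lower (8.42% and 7.57% of all tested), and in B73 against Wf9, 6 were higher and 1 lower (7.60% and 6.87%). In Mo17 against W23, 0 were higher and 2 lower (7.11% and 6.78%), and in Mo17 against Wf9, 3 were higher and 5 lower (8.18% and 8.12%). In W23 against Wf9, 3 were higher and 2 lower (7.44% and 7.81%). Without the odd array, 5 were higher in B73 than in W23 and 2 were lower in B73 than in Wf9. With all arrays and without the wildcard genes, 5 were higher in B73 than in Wf9, of which 4 were probe sets of aoc1. Likewise 2 were higher in Mo17 and 2 in W23 than in Wf9, all of aoc1. The shares of all tested here also take in the probe sets at background on every array. Probe sets of 1 gene are not separate members, so nothing is read from these counts.

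Among protease inhibitors, 1 of 3 probe sets passed. It was cc7, another cystatin, which averaged 88.2 ± 13.2 signal units in B73, 62.8 ± 8.81 in W23, 47.9 ± 9.998 in Wf9 and 43.3 ± 6.37 in Mo17 (SD, n = 3 each; limma F-test, adjusted p = 0.0126). B73 was above Mo17 by 0.81 (SE 0.17) on the log2(signal + 16) scale. Mo17 and Wf9 were not told apart (log2 difference -0.10, SE 0.17; limma contrast, adjusted p = 0.804). The probe sets of MPI, the maize proteinase inhibitor, did not pass (adjusted p = 0.643 and 0.585). In the brighter of them, W23 averaged 162 ± 211 (SD, n = 3), an SD larger than the mean.

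Of the 5 probe sets of the cysteine protease list, which is not limited to the papain type that cystatins block, 2 passed. See2b, a legumain-type protease known from senescing leaves, averaged 5437 ± 1202 signal units in Wf9, 3854 ± 558 in B73, 2375 ± 291 in Mo17 and 2041 ± 283 in W23 (SD, n = 3 each; limma F-test, adjusted p = 0.00072). W23 was below Wf9 with a log2(signal + 16) difference of -1.39 (SE 0.20). Ccp2 averaged 2686 ± 275 in Wf9, 1914 ± 802 in B73, 1434 ± 107 in W23 and 1412 ± 40.6 in Mo17 (SD, n = 3 each; adjusted p = 0.0402 in the limma F-test), and this call was lost in 14 of 25 alternative settings, among them the fit without the odd array (adjusted p = 0.0574). The 2 probe sets of ccp1 did not pass (adjusted p = 0.907 and 0.957), nor did mir3 (adjusted p = 0.388).

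Of the other pathogenesis-related proteins, 1 of 4 probe sets passed. Zlp is a zeamatin-like protein of the same PR-5 family as pr5. Its probe set Zm3.281.1.A1_s_at averaged 36.4 ± 12.2 in Wf9, 18.9 ± 11.7 in W23, 11.7 ± 5.56 in Mo17 and 7.00 ± 4.02 in B73 (SD, n = 3 each; limma F-test, adjusted p = 0.0142). All 6 B73 arrays, 4 of 6 in Mo17 and 4 of 6 in W23 were at or below background, and none was in Wf9, so only Wf9 was measured throughout. The suffix _s of this probe set also marks shared probes, so its signal may include a related transcript. For pr5, B73 was the highest line and was above background on every array. The other Zlp probe set, of suffix _x, did not pass the F-test with all arrays (adjusted p = 0.264). It read 502 on array 1 and 30.3 on array 2 of B73 replicate 3. Without the odd array it passed (adjusted p = 0.00635), with 76.5 ± 16.5 in Wf9, 46.0 ± 13.9 in W23, 27.6 ± 12.1 in Mo17 and 27.0 ± 4.55 in B73 (SD, n = 3 each). The 2 prp2 probe sets did not pass (adjusted p = 0.125 and 0.136), nor did the chitinase chn1 (adjusted p = 0.512).

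Of the 8 probe sets of the jasmonate list, which was matched by symbol, 4 passed, all of them aoc1, allene oxide cyclase. The probe sets of aoc1 fell into 2 patterns, and the match of their probes to each line's sequence was not tested. Zm3.6423.1.A1_at averaged 33.4 ± 7.76 in Wf9 (SD, n = 3) and between 243 and 256 in the other lines (limma F-test, adjusted p = 4.16e-06). Zm3.6423.2.A1_at averaged 121 ± 10.5 in B73, 48.8 ± 8.28 in Wf9, 45.8 ± 0.883 in W23 and 25.8 ± 4.70 in Mo17 (SD, n = 3 each; limma F-test, adjusted p = 3.13e-05). The lox1 probe sets, of a lipoxygenase, and those of opr3 and opr5 did not pass the F-test. Opr3 and opr5 were listed for their symbols, as oxophytodienoate reductases, and whether they act in jasmonate synthesis was not tested. In the contrast of B73 with Mo17, opr5 did pass and was higher in B73, by 1.497 on the log2(signal + 16) scale (adjusted p = 0.0475). Opr3 read 137 in B73 replicate 3, on the mean of its 2 arrays, and was below background in the other B73 replicates. B73 replicate 3 was also the highest pr5 replicate, but the list members went both ways there. Opr5 read 741 in it, against 566 and 248 in B73 replicates 1 and 2. The lox1 probe set Zm3.3303.1.A1_at read 9.70 (17.6 on array 2), against 96.7 and 135.6. A link between these replicate levels and pr5 was not tested.

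**Figure D4:**
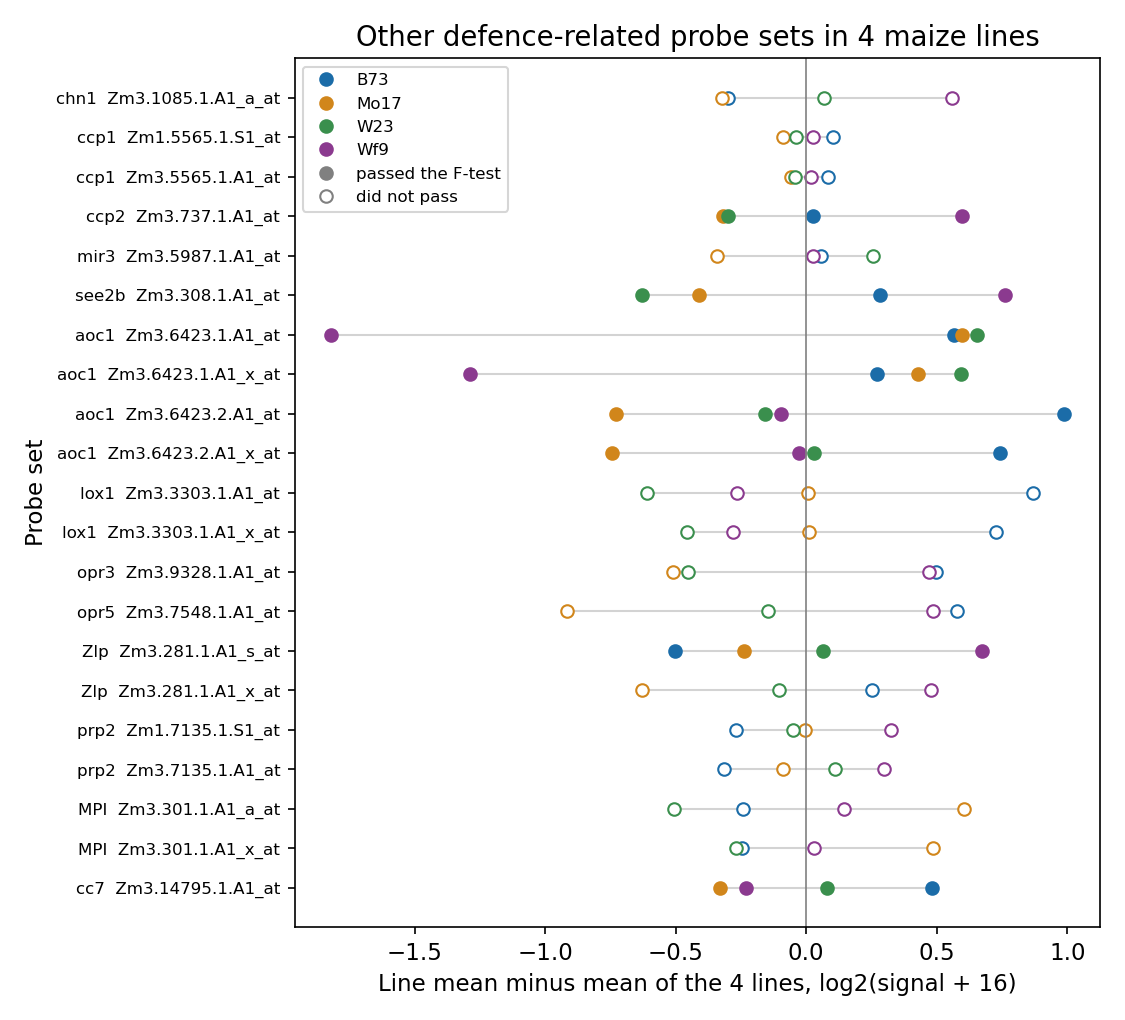
Difference of each line's mean log2(signal + 16) from the mean over the 4 lines, for the 21 defence probe sets left without the wildcard genes. Filled points mark probe sets called by the F-test and open points the others. The aoc1 probe sets show 2 patterns, and see2b and ccp2 are highest in Wf9.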

How the data were processed

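Leaf RNA of 4 maize lines was measured on 24 arrays of 12 RNAs. The table the authors deposited holds intensities of 8475 probe sets, made with MAS5 in GCOS per the submitters' processing notes, with versions not given in the sources used here. Trimmed means, at 2%, lay between 250.15 and 250.24 on all arrays, so rescaling to a common value changed no array by more than 0.0198%. Exact zeros were treated as missing, 129 control probe sets were left out, log2(signal + 16) was taken, which understates differences of dim probe sets, and the 2 arrays of an RNA were averaged. Limma 3.58.1 in R 4.3.3 (lmFit, eBayes with a trend) fitted the 12 RNAs with line as the only term. An F-test and 6 contrasts of lines were adjusted over 8346 probe sets, with a threshold of 0.05, after the script was tested on simulated data. P-values take the 3 replicates of a line as separate samples, as far as the labels describe them, although W23 replicates 2 and 3 were closer (SD of log2 differences 0.184) than any other pair of a line (0.355 to 0.740). Line means and SDs are of linear signals, each RNA being the mean of its arrays. The number of arrays limits the precision.

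The members and the gene lists were chosen with earlier results of these data known. Named genes were all members, the 3 named probe sets most like each member, and of each defence list every called probe set and the 3 brightest; further list members are named with their values. Genes were matched on symbols and synonyms, and 838 of the 862 probe sets with 1 gene symbol matched the reference table. Read literally, the list rule counts ccp1 and ccp2 as protease inhibitors; they were described with the cysteine proteases after their names were seen. Alternatives varied the pseudocount, normalization, zeros, filter, technical arrays, trend, array weights, replicate block and replicates. Sequences and genome positions are not used here.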

Additional observations from a re-analysis of the deposited data

How the results depend on the processing

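No difference between the highest and the lowest line of a member turned round in any alternative. These lines were picked in the main fit, and their replicates did not overlap, so leaving out a replicate could not turn a difference round. Leaving out a replicate of another line could not change it at all. Nothing is therefore read from the kept direction. With all arrays and a pseudocount of 16 the log2 difference of pr5, B73 minus W23, was 4.75, and it was 6.11 with a pseudocount of 1 and 3.34 with 64. For Zm1.14272.4.S1_x_at, Mo17 minus B73, it was 3.51, and it was 2.90 with a pseudocount of 64 and 3.11 without B73 replicate 3 array 1. For Zm3.14272.1.A1_at, B73 minus Wf9, it was 1.11, against 0.96 with a pseudocount of 64, 1.25 without that array, 0.95 from array 1 of each RNA alone and 1.26 from array 2 alone. With each replicate left out in turn, the differences ran from 4.01 to 5.38 for pr5, 0.72 to 1.03 for Zm1.14272.4.S1_a_at, 3.25 to 3.69 for Zm1.14272.4.S1_x_at, 1.24 to 1.44 for Zm1.14272.5.S1_x_at and 1.02 to 1.16 for Zm3.14272.1.A1_at. The called probe sets then numbered 2045 to 2806 of all tested, against 2549 with every replicate, and 7 to 13 of the defence lists, against 9. Limma's array weights gave 5521 and 19 calls, with a warning that the weights had not converged. The gene-by-gene method of weighting, chosen after seeing that warning and those counts, gave 3971 and 16. With W23 replicates 2 and 3 counted as 1 replicate there were 2056 and 8 calls. The replicate number as a block (a paired fit) gave 2960 and 9 calls. Same-numbered replicates of 2 lines had correlations of their deviations from the line mean over 0.1 in 15 of 18 pairs, from -0.53 to 0.57, and 9 of 12 RNAs correlated best with one of their own number. The labels give the numbers no shared day. Also chosen after seeing the data were the list calls without the odd array, the folds without the odd array or a replicate and the list without the wildcard genes. MAS5 signal near background limits pr5 in W23 and Wf9.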
